A study of Mus musculus with 15 samples.

Results

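Stretches of DNA between genes that stay highly methylated in normal blood progenitors were followed across mutant progenitors by reduced representation bisulfite sequencing of mouse bone marrow. The autosomes of mouse build mm9 were divided into windows of 1 kb, and 29251 windows held at least 3 CpGs with 10 or more reads in all 15 libraries. The methylation level of a window is the share of its reads, summed over CpGs and strands, that stayed unconverted. The windows described here lay more than 3 kb from any annotated transcription start site, overlapped no gene and had a mean level above 80% in the 4 wild type (WT) libraries; 3791 windows met this rule and are called members below. The WT levels chose the members, so values of WT cells are given as a description without a test, and tests are reported between mutant groups only. The 2 windows just inside the limit had WT means of 80.01% and 80.02%, and the 2 just outside had 79.99% and 79.97%. Levels of these 4 windows in single mutant libraries ran between 69.2% and 95.4%.

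In mammalian cells most CpGs between genes are methylated, whereas CpG islands at promoters are mostly not. Dnmt3a is one of the enzymes that place methylation on unmethylated DNA, and Dnmt1 copies it to the new strand after replication. Tet enzymes oxidise 5-methylcytosine on the way to its removal. The R140Q form of mitochondrial Idh2, found in leukaemia, makes 2-hydroxyglutarate, which inhibits Tet enzymes and other dioxygenases. Mutations of DNMT3A and IDH2 occur together in human myeloid leukaemia. Bisulfite converts unmethylated cytosine to uracil and leaves 5-methylcytosine and 5-hydroxymethylcytosine, so a level counts both of these. A C-to-T sequence change at a CpG would also be read as unmethylated, and this could not be checked in the deposited files.

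The groups were Mx1-cre+;Dnmt3a-/-;Idh2 R140Q cells (double mutant, 3 libraries), Mx1-cre+;Dnmt3a-/- cells (knockout), Mx1-cre-;Dnmt3af/f;Idh2 R140Q cells (Idh2 mutant) and Mx1-cre+;Dnmt3af/f cells (WT), all of strain C57BL/6. Knockout, Idh2 mutant and WT cells were each sorted as megakaryocyte-erythroid progenitors (MEP; Lin-, cKit+, Sca1-, CD34-, Cd16/32-) and as granulocyte-macrophage progenitors (GMP; CD34+ and Cd16/32+ in place of the last pair), with 2 libraries of each. Double mutant cells are labelled malignant stem and progenitor cells and carry the MEP markers, so they were set against MEP. Idh2 mutant mice lacked Mx1-cre, the interferon-inducible recombinase that the knockout, double mutant and WT mice carried. The libraries are labelled biological replicates without a statement that they came from separate animals, so the spread between them may be technical, and GMP and MEP libraries with the same title prefix may come from 1 animal. Libraries held between 19306705 (Idh2 mutant) and 35204906 (WT) reads over cytosines. For each 1000000 autosomal reads, mutant libraries held 198.8 to 386.3 Y chromosome reads and WT libraries 53.9 to 57.5. Genotype and sex chromosome content thus cannot be told apart in any comparison with WT.

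The following mm9 sequences show measured CpGs in capitals. The first are of some of the members named below for a difference between groups. The others are of a member that was low in every mutant library and of 3 near-identical copies of a repeat on chromosome 10. Each runs from 10 bases before the first measured CpG to 10 bases after the last.
Window nearest Prokr1 (chr6:87564366-87564515, + strand): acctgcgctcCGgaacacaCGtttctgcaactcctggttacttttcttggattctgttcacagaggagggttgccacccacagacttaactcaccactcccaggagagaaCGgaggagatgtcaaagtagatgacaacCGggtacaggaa
Window nearest Arrdc4 (chr7:75989816-75989963, + strand): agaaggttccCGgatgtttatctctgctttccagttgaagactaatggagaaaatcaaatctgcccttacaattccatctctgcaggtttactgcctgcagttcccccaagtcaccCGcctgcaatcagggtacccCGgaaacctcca
Window nearest Plcl2 (chr17:50595171-50595323, + strand): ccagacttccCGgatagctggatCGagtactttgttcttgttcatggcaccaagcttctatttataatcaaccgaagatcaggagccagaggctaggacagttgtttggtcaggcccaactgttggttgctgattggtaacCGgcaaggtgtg
Window nearest Tada3 (chr6:113315476-113315618, + strand): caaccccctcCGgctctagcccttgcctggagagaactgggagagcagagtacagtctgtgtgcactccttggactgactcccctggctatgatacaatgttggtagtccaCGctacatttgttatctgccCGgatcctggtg
Window nearest Gm16432 (chr1:179900076-179900125, + strand): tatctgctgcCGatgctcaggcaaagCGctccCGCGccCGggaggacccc
Repeat copy nearest Moxd1 (chr10:24050817-24050949, + strand): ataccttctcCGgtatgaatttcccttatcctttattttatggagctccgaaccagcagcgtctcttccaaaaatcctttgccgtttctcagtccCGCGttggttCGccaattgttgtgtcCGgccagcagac
Repeat copy nearest U7 (chr10:54412558-54412690, - strand): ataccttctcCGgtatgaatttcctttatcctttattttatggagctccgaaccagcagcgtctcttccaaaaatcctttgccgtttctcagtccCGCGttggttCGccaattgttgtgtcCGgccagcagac
Repeat copy nearest D10Wsu102e (chr10:82867401-82867533, + strand): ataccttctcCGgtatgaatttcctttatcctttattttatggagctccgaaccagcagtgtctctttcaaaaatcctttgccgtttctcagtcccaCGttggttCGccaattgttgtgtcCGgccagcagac
The first 2 repeat copies match at 132 of 133 bases, and the copy nearest D10Wsu102e matches them at 129 and 130 of 133.

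Members held fewer CpGs than the median of all windows, and the rule itself kept them away from genes and start sites. The median member had 18 CG dinucleotides in its 1 kb, of which 3 were measured (up to 25), against 31 and 4 over all 29251 windows. Its G and C content was 47.8%, against 53.5% over all windows. Intron windows chosen by the same WT level and distance had medians of 17 CG dinucleotides and 48.4% G and C. Such coding exon windows had 22 and 52.1%. The low CpG number was thus not particular to members. The nearest start site lay at a median of 34907 bp, with 634 members within 10000 bp and 832 beyond 100000 bp. The mean member level differed little with this distance: in double mutant cells it was 91.6% up to 10000 bp and 91.6% beyond 100000 bp. The 172 members with 7 or more measured CpGs averaged 90.1% in double mutant cells, and the 2196 members with 3 measured CpGs averaged 92.0%. CpGs in CCGG, the site at which the library enzyme of this assay usually cuts, made up 7365 of the 14501 measured CpGs of members (50.8%).

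Many members carried sequence that occurs elsewhere in the genome. Each stretch within 25 bases of a measured CpG was searched in mm9 in words of 32 bases, and a member with at least 50% of its words repeated was called multi-copy. This held for 1083 members (28.6%), against 13.8% of 2062 intron windows with the same WT level and distance, 1.71% of 1810 such coding exon windows and 8.58% of all windows. Chromosome 10 held 336 of the 1083 multi-copy members (31.0%) but 163 of the 2708 single-copy members (6.02%). The genomic copies of the multi-copy words were not concentrated there, with 5.01% of them on chromosome 10. The median depth was 1285 reads per window and library for multi-copy members on chromosome 10, 176 for those on other chromosomes and 146 for single-copy members. Among the 14 groups of at least 10 members that share sequence, 13 had a higher median depth on chromosome 10 than elsewhere. The largest of these groups held 158 members, with a median of 2025 reads for its 70 members on chromosome 10 and 197 for the others. How reads that match several places were assigned is not given in the sources used here, so the level of a multi-copy member cannot be tied to 1 genomic copy.

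**Figure D1:**
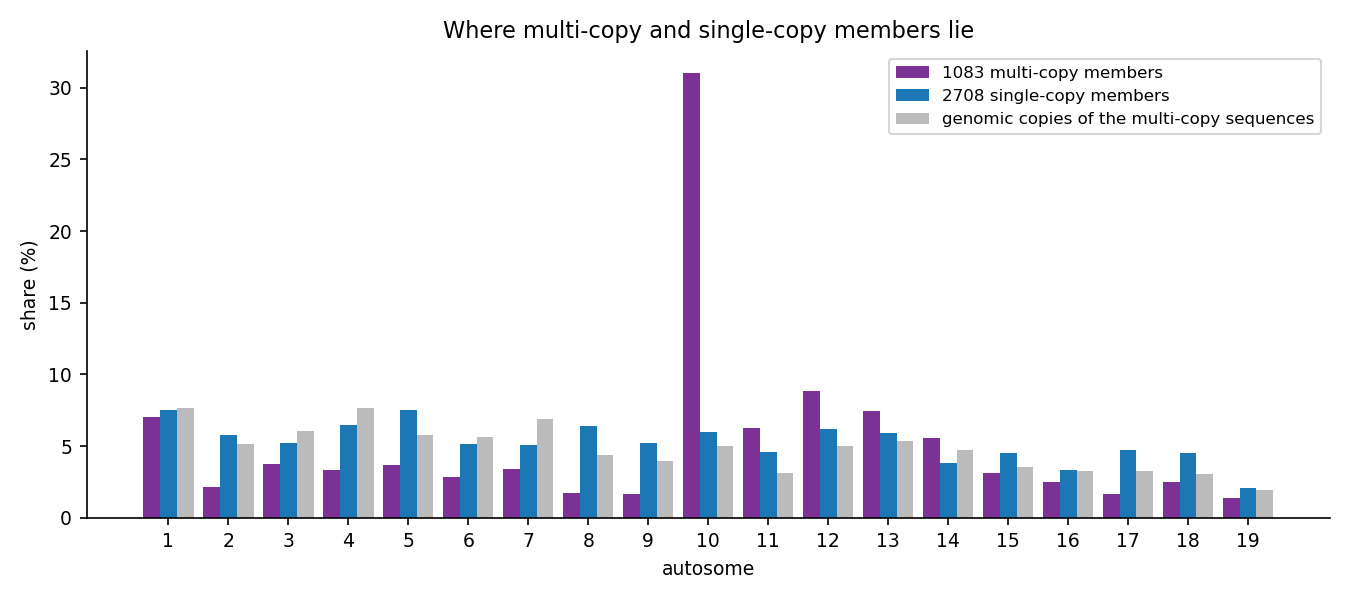
Share (%) of members on each autosome: bars show, from left to right within each chromosome, the 1083 multi-copy members, the 2708 single-copy members and the mean share of the genomic copies of the multi-copy sequences. Chromosome 10 holds 31.0% of multi-copy members, 6.02% of single-copy members and 5.01% of the genomic copies.

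Mean levels of the members stayed within a few points of each other in all groups. The mean over members was 91.8%, 92.02% and 91.1% in the double mutant libraries, 90.5% and 91.9% in knockout MEP, 88.97% and 88.1% in Idh2 mutant MEP and 87.2% and 90.3% in WT MEP. In GMP it was 89.9% and 89.8% in knockout, 89.9% and 91.8% in Idh2 mutant and 90.5% and 90.97% in WT libraries. All 3 double mutant libraries lay above both Idh2 mutant MEP libraries, and 1 of them lay above both knockout MEP libraries. The double mutant mean was 3.15 points above Idh2 mutant MEP (two-sided exact permutation p = 0.1, which 3 against 2 libraries cannot go below; 0.206 adjusted over 13 tests of mean levels). It was 0.47 points above knockout MEP (exact permutation p = 0.6), and without knockout MEP replicate 1 it was lower by 0.271 points; counted over the CpGs outside CCGG it was also lower, by 0.337 points. Knockout libraries lay 0.837 points above Idh2 mutant libraries over both cell types (exact permutation p = 0.444; 0.359 to 1.32 points without 1 library, the ends being Idh2 mutant GMP replicates 1 and 2), by 2.68 points in MEP and by -1.01 points in GMP. The difference between these 2 effects was 3.69 points (exact permutation p = 0.111; 0.206 adjusted). MEP and GMP differed by -0.506 points over both single mutants (exact permutation p = 0.667), with -0.985 and -0.0278 points without Idh2 mutant GMP replicate 1 and replicate 2.

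The share of nearly fully methylated members varied more than the mean. Members above 95% numbered 1638, 1605 and 1410 in the double mutant libraries, 1239 and 1279 in knockout MEP, 599 and 705 in Idh2 mutant MEP and 252 and 704 in WT MEP. In GMP they numbered 843 and 695 in knockout, 871 and 1267 in Idh2 mutant and 741 and 885 in WT libraries. The double mutant counts lay above those of every other library. The median reads per member were 154, 184 and 179 in double mutant libraries, against 141 and 152 in knockout MEP and 127 and 158 in Idh2 mutant MEP. WT MEP libraries had 198 and 212. In GMP the medians were 143 and 141 in knockout, 140 and 122 in Idh2 mutant and 170 and 180 in WT libraries. The part of depth in these counts was not tested. Few members were below 50%: 12, 11 and 8 in double mutant libraries, 22 and 2 in knockout MEP and 3 and 11 in Idh2 mutant MEP.

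**Figure D2:**
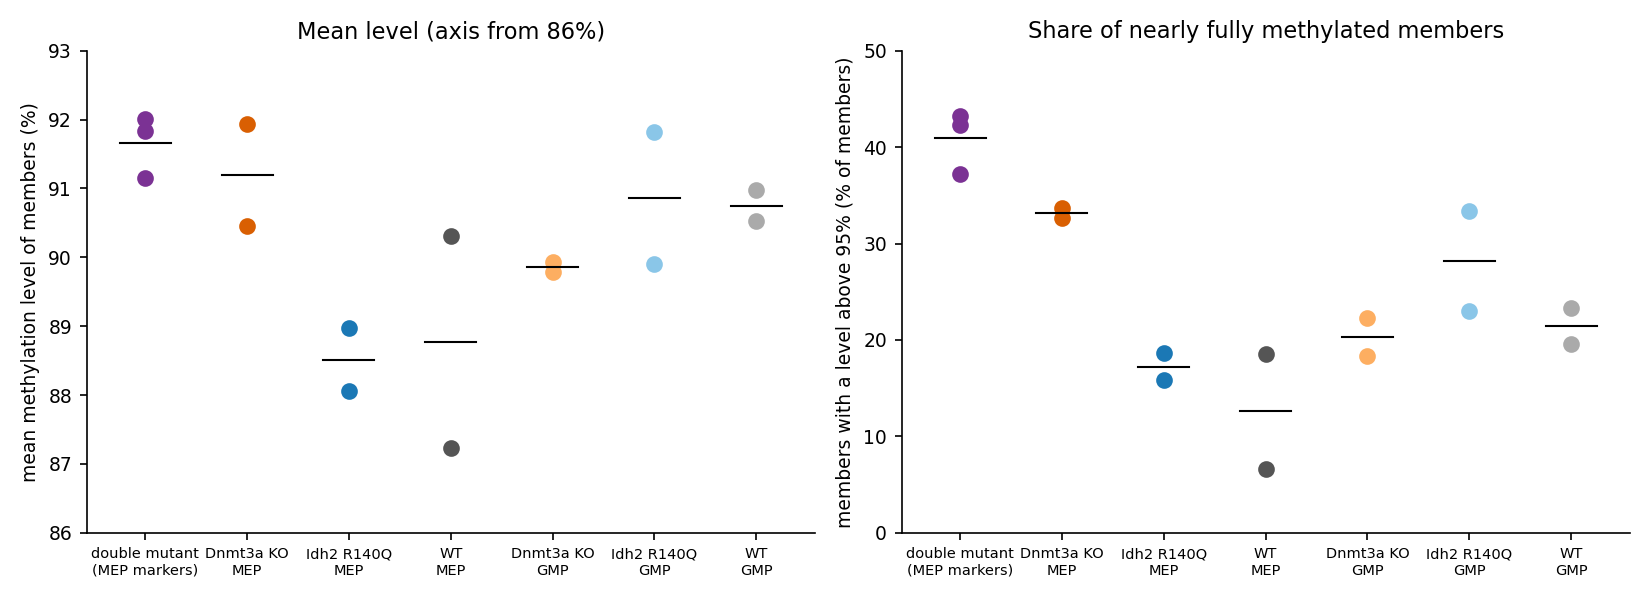
Left, mean methylation level of the 3791 members (%, axis from 86); right, share of members with a level above 95% (%). Each point is 1 library, lines are group means, and groups run from double mutant to WT GMP; the double mutant libraries have shares of 37.2% to 43.2%, above those of all other libraries.

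Intron and coding exon windows chosen by the same WT level and distance served to show where the intergenic windows differ. Relative to intron windows, the members' double mutant minus Idh2 mutant MEP difference was larger by 0.640 points, and relative to exon windows by 0.980 points (exact permutation p = 0.1 each, the smallest possible; 0.206 adjusted). Without Idh2 mutant MEP replicate 2 these values were 0.363 and 0.553 points, and the intron value was 0.356 points at 20 reads per CpG and also at a WT limit of 90%. The knockout minus Idh2 mutant difference was larger by 0.548 and 0.750 points than in intron and exon windows (exact permutation p = 0.0556 each, the smallest possible; 0.206 adjusted). For double mutant minus knockout MEP the members differed from intron windows by -0.0447 points (exact permutation p = 0.3) and from exon windows by -0.214 points (p = 0.1, exact permutation; 0.206 adjusted), and both signs turned when all reads were pooled. None of these differences passed after adjustment, and the design could not have let them pass.

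The bases next to a CpG went with small differences in level among the 9770 CpGs of single-copy members. CpGs in CCGG averaged 92.6%, 92.98% and 91.7% in double mutant libraries, 90.5% and 92.4% in knockout MEP and 89.1% and 88% in Idh2 mutant MEP. All other CpGs averaged 91.3%, 91.2% and 90.7%, 90.8% and 91.9% and 88.9% and 88.3% in the same 3 groups. The double mutant minus knockout difference was thus 1.03 points in CCGG and -0.282 points elsewhere. The palindrome CACGTG, the E-box bound by Myc, Max and Usf proteins, held 37 of these CpGs (0.379%; over all windows 0.296% of measured CpGs) and was singled out after its values were seen. Its CpGs averaged 79.6%, 78.2% and 74.5% in double mutant libraries, 87.4% and 88.8% in knockout MEP, 82.5% and 79.98% in Idh2 mutant MEP and 83.9% and 88.3% in WT MEP. The double mutant libraries lay below all others at these 37 CpGs, in a comparison that was given no test.

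Between double mutant and knockout MEP, members moved in both directions, in a balance that changed with the libraries used. Of 3791 members, 90 were higher and 99 lower in double mutant cells at an adjusted p under 0.05 (quasi-binomial model, Benjamini-Hochberg over all 29251 windows) and a difference of at least 10 points. Over all windows, 11.5% were called higher and 1.75% lower, and among members these shares were 2.37% and 2.61%. The intron windows of the same WT level and distance had 2.62% and 3.15%, and such exon windows 1.44% and 1.55%. The near balance of directions was thus not particular to members. A knockout MEP mean at or below 90% was found in 1216 members (32.1%), and 7.40% of these were called higher, against 15.5% of all windows at or below that level. These 2 sets were not matched on level, as the median WT level was 90.3% over members and 12.5% over all windows. The part of the room to rise in these shares was not tested. The 90 members that rose averaged 93.7% in double mutant cells and 75.7% in knockout MEP, where the libraries differed (71.2% and 80.2%). The 99 that fell averaged 72.5% in double mutant cells and 91.2% in knockout MEP (90.9% and 91.4%). Without knockout MEP replicate 1, 30 members were higher and 44 lower. Without knockout MEP replicate 2 there were 138 higher and 59 lower, and without double mutant replicate 2 there were 54 higher and 86 lower. A fit to the 5 libraries compared alone called 48.

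**Figure D3:**
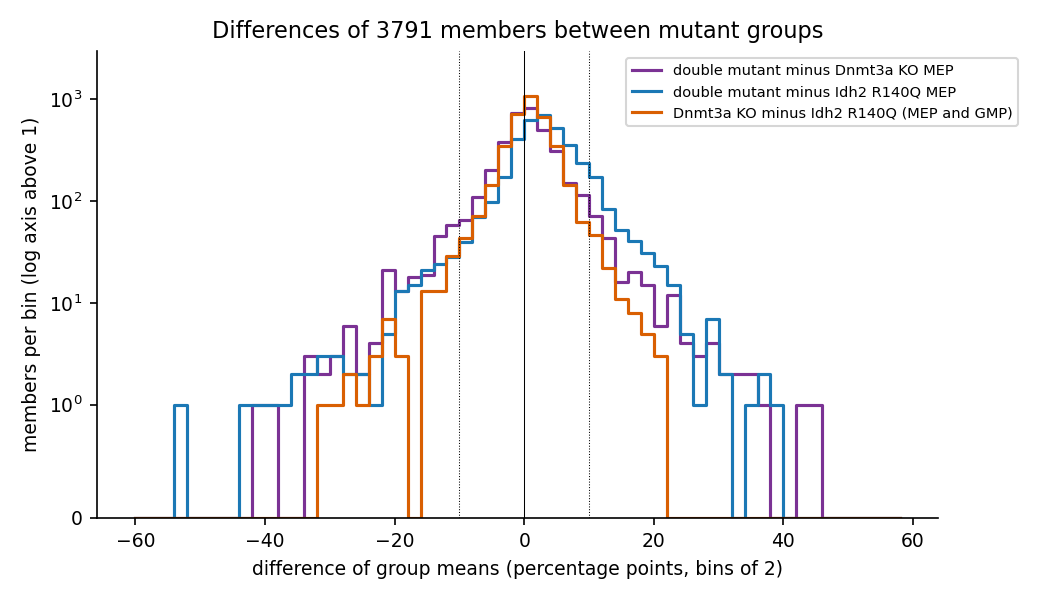
Number of members (log axis above 1) by the difference of group means in percentage points, in bins of 2 points, for double mutant minus knockout MEP, double mutant minus Idh2 mutant MEP and knockout minus Idh2 mutant over both cell types; dotted lines mark 10 points. The double mutant minus Idh2 mutant curve is shifted to the right, with a median of 3.07 points, and the 2 others are centred nearer 0, with medians of 0.434 and 0.911 points.

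The largest fall from knockout MEP was at chr6:87564001-87565000, 23306 bp from the start of Prokr1, which encodes a prokineticin receptor. Its level was 45.96%, 50.7% and 42.2% in double mutant libraries, 84.7% and 90.2% in knockout MEP, 88.8% and 81.6% in Idh2 mutant MEP and 87.4% and 92.4% in WT MEP. In GMP it was 88.2% and 79.5% in knockout, 85.7% and 86.7% in Idh2 mutant and 89.5% and 90.9% in WT libraries. Every double mutant library lay far below the other 12 libraries, on 112 to 320 reads per library. The level fell by 41.2 points relative to knockout MEP (adjusted p = 8.15e-05; limma 0.00181) and by 38.9 points relative to Idh2 mutant MEP (adjusted p = 0.000157), and it was called without any 1 of the libraries compared. The first of its 4 CpGs in the sequence above stayed at 98.2%, 98.5% and 100% in double mutant cells, whereas the fourth was at 11.6%, 37.97% and 3.96%, against 88.7% and 100% in knockout MEP. These CpGs lie 128 bases apart.

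At chr7:75989001-75990000, 94874 bp from Arrdc4, an arrestin domain gene, the level fell by 33.2 points relative to knockout MEP and by 43 points relative to Idh2 mutant MEP. It was 34.3%, 34.8% and 30.5% in double mutant libraries, 63.6% and 69.2% in knockout MEP and 76.6% and 75.8% in Idh2 mutant MEP (adjusted p = 0.00225 and 0.000418). Its CpGs moved in opposite directions: the first was at 94.3%, 93.9% and 94.2% in double mutant libraries, against 54.5% and 64.1% in knockout MEP and 37.8% and 45.5% in Idh2 mutant MEP. The second, 106 bases on, was at 17.2%, 4.35% and 7.79% in double mutant libraries, against 52.1% and 82.4% in knockout MEP and 91.1% and 94.3% in Idh2 mutant MEP. So the double mutant had the highest level of these groups at 1 CpG and the lowest at the next. Single CpGs differed from knockout MEP by -57.4 to 34.8 points. The window level weights each CpG by its reads, and the part of this in the fall was not tested.

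Relative to knockout MEP the level also fell by 38.9 points near Ccl26, fell by 33.5 points near Cacna2d2 and fell by 31.95 points near Gm10505, which completed the 5 largest falls. At chr9:107291001-107292000, 9943 bp from Cacna2d2, a calcium channel subunit gene, the level was 38.6%, 55.3% and 46.5% in double mutant libraries and 79.2% and 81.5% in knockout MEP (adjusted p = 0.00228). At chr17:27472001-27473000, nearest Gm10505, it was 42.9%, 29.3% and 50% in double mutant libraries, 61.4% and 84.1% in knockout MEP and 79.9% and 84.1% in Idh2 mutant MEP (adjusted p = 0.00646 and 0.00304). Without knockout MEP replicate 2 its call against knockout was lost (adjusted p = 0.35). The window nearest the chemokine gene Ccl26, chr5:136043001-136044000, had 43.1%, 44.8% and 51.8% in double mutant libraries and 93.6% and 77.3% in knockout MEP (adjusted p = 0.00279). It is multi-copy, with 55.3% of its words repeated, and 1 of its 3 CpGs moved by 10 points or more. The differences of its single CpGs from knockout MEP ran from -40.2 to 4.25 points. A window level weights each CpG by its reads, so the fall of 38.9 points also depends on how reads were spread over the CpGs. The part of this in the fall was not tested.

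Of the 5 largest rises over knockout MEP, 3 were copies of 1 repeat on chromosome 10, described below, and 2 were single-copy. At chr17:24152001-24153000, 7295 bp from a SNORA17 gene, a small nucleolar RNA, the level was 95.6%, 97.9% and 94.4% in double mutant libraries and 37.2% and 65.7% in knockout MEP, with 60.8% and 96.6% in Idh2 mutant MEP. It rose by 44.5 points over knockout MEP (adjusted p = 0.00251). Near Dock6, which encodes an exchange factor for Rac and Cdc42, chr9:21662001-21663000 had 93.6%, 87.9% and 88.5% in double mutant libraries and 34.6% and 75.8% in knockout MEP (adjusted p = 0.00873). The call of both rises was lost without knockout MEP replicate 1, the lower library, with adjusted p = 0.0633 near SNORA17 and 0.076 near Dock6.

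Against Idh2 mutant MEP the calls leaned towards higher levels in double mutant cells. Of the members, 251 were higher and 65 lower, shares of 6.62% and 1.71%, against 10.7% and 3.48% over all windows. The shares were 6.84% and 2.91% in the intron windows of the same WT level and distance, and 3.70% and 1.60% in such exon windows. Of the 1986 members with an Idh2 mutant MEP mean at or below 90%, 12.6% were called higher, a share near the 13.6% of all windows at or below that level. These sets were not matched on level either. The median difference over all members was 3.07 points. The 251 that rose averaged 94.9% in double mutant cells and 79.3% in Idh2 mutant MEP (81.8% and 76.8%), and the 65 that fell averaged 68.6% in double mutant cells and 89.8% in Idh2 mutant MEP. This comparison and the one with knockout MEP share the double mutant libraries. At 25 points or more, 15 members were higher and 18 lower. The share over all windows at that limit is not given here, so this balance is not read as particular to members. Without Idh2 mutant MEP replicate 2, 125 members were called, and a fit to the 5 libraries compared alone called 62.

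At chr17:50595001-50596000, 52872 bp from Plcl2, a phospholipase C-like gene, the level was 93.8%, 95.6% and 97.4% in double mutant libraries, 85.6% and 94.8% in knockout MEP, 60.4% and 51.6% in Idh2 mutant MEP and 67.1% and 77.4% in WT MEP. In GMP it was 92.4% and 96.5% in knockout, 81.7% and 90.3% in Idh2 mutant and 94.7% and 99.1% in WT libraries. The Idh2 mutant MEP libraries were the lowest of the 15, and the double mutant lay 39.5 points above them (adjusted p = 0.000181; at most 0.00664 without any 1 library). All 3 of its CpGs, shown above, moved the same way.

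The other named rises over Idh2 mutant MEP included windows nearest Inhbb and Prox1. Near Inhbb, the inhibin beta B subunit, chr1:121135001-121136000 had 87.7%, 98% and 98.1% in double mutant libraries and 59.3% and 61.6% in Idh2 mutant MEP (adjusted p = 0.0044). Near Prox1, a homeobox factor of lymphatic endothelium, chr1:192111001-192112000 had 97.3%, 92.8% and 95.98% and 70.4% and 58.2% in the same groups (adjusted p = 0.00164). In this window the third CpG differed most, with 100%, 91.5% and 100% in double mutant libraries and 25.8% and 15.8% in Idh2 mutant MEP. All 3 CpGs of the window were higher in double mutant cells, 2 of them by 10 points or more. At chr4:139975001-139976000, nearest Gm13021, the levels were 76.3%, 86.8% and 90.8% in double mutant libraries and 64.7% and 29.6% in Idh2 mutant MEP (adjusted p = 0.00959, and 0.129 without Idh2 mutant MEP replicate 2).

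**Figure D4:**
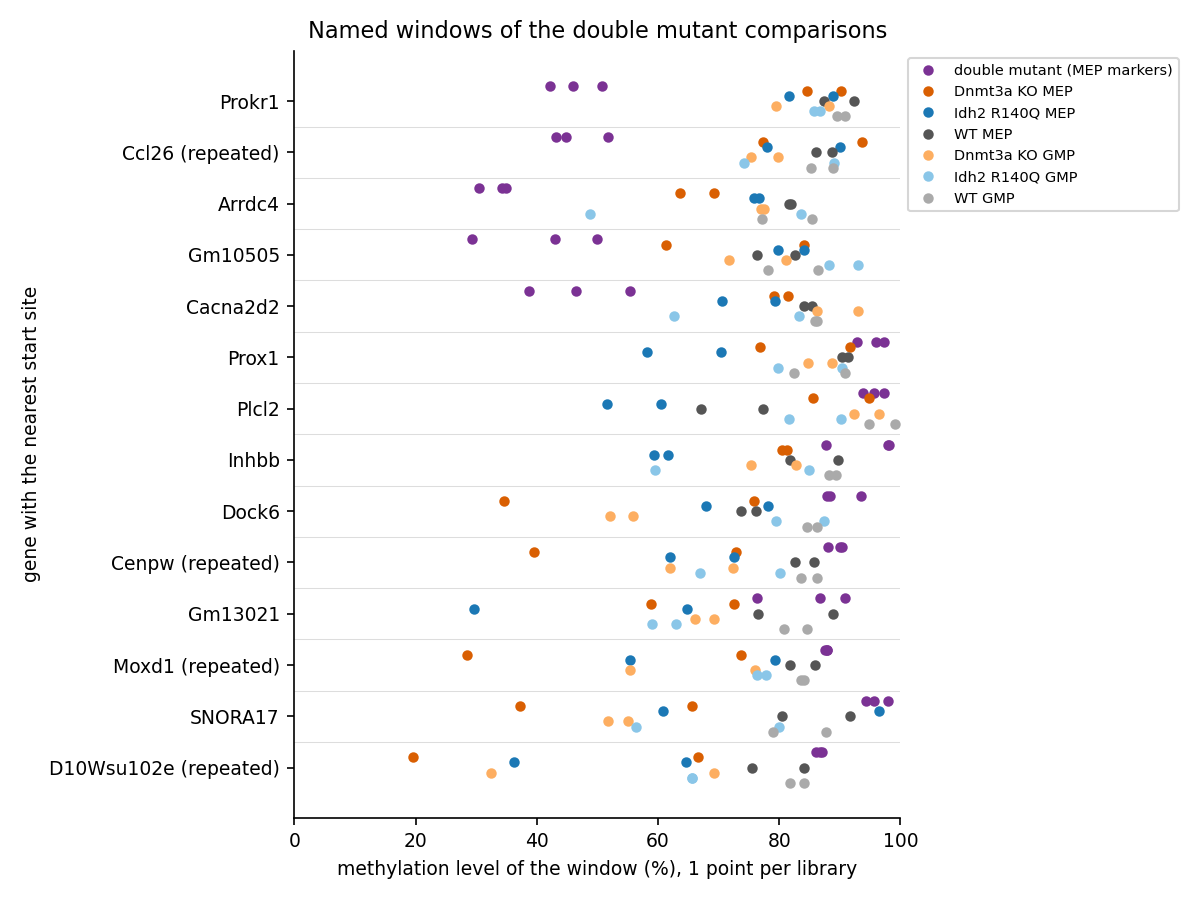
Methylation level (%) of 14 windows named in the 2 double mutant comparisons, 1 point per library, with windows ordered by the double mutant difference and labelled by the gene with the nearest start site; repeated marks multi-copy windows. In the upper 5 windows the double mutant points lie left of the knockout and Idh2 mutant MEP means, and in the other windows to their right.

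Calls often rested on part of a window. Among the members that fell from knockout MEP, every measured CpG was lower in 40 of 99, and 44 had a single CpG that moved by 10 points or more. Among those that rose over knockout MEP, every CpG was higher in 63 of 90. Against Idh2 mutant MEP every CpG was higher in 194 of 251 members that rose and lower in 20 of 65 that fell.

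**Figure D5:**
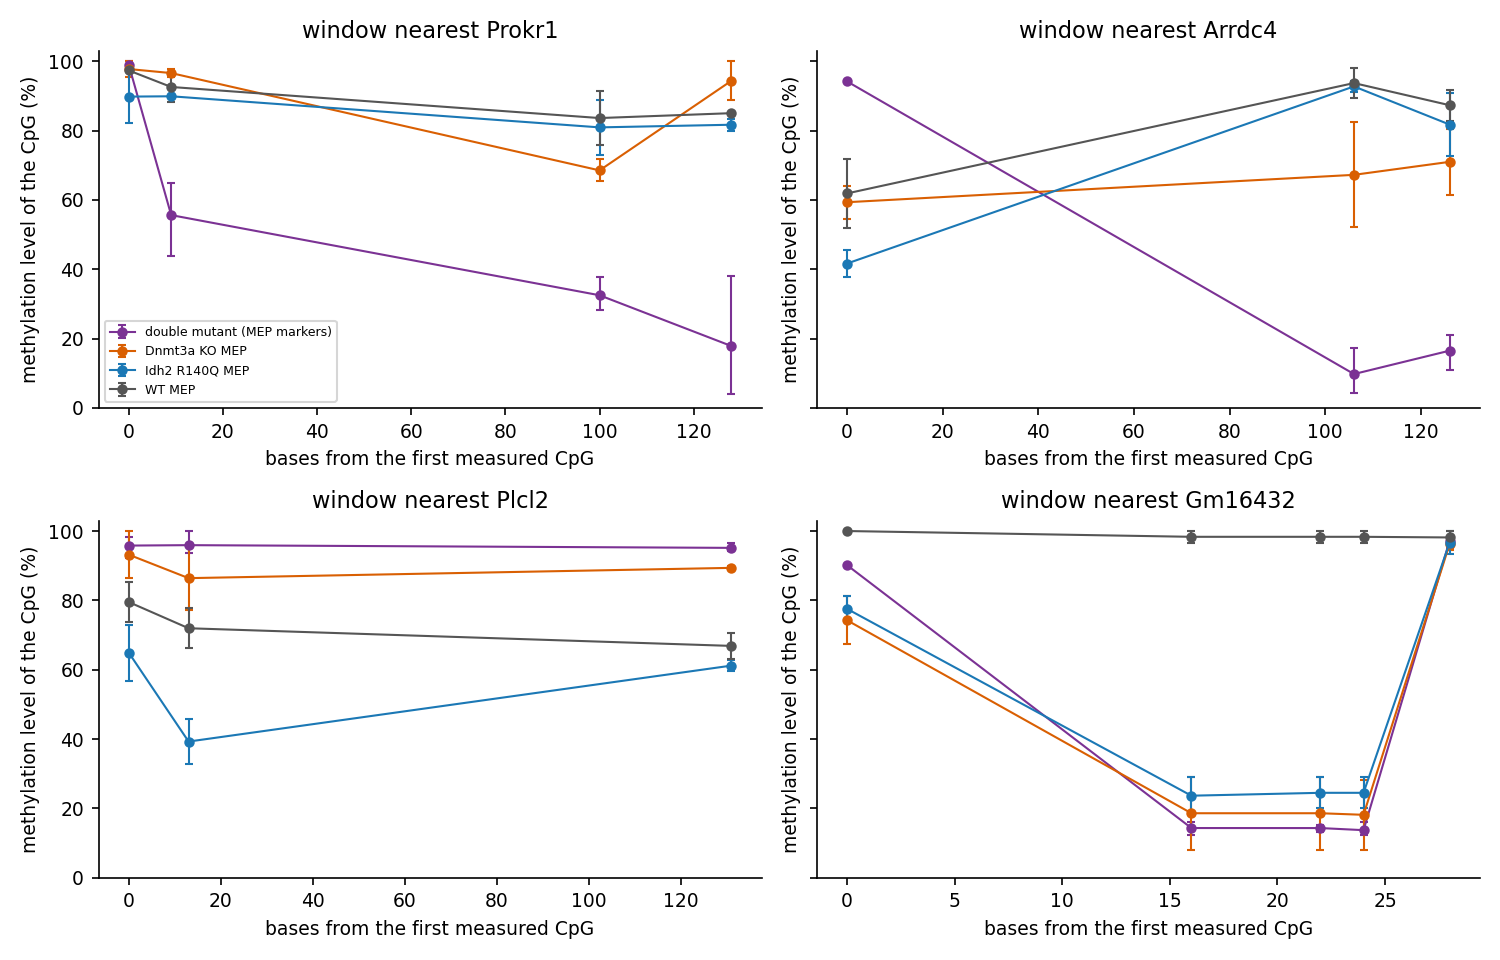
Methylation level (%) of each measured CpG against its distance in bases from the first measured CpG in 4 windows, for double mutant, knockout MEP, Idh2 mutant MEP and WT MEP; points are group means and bars span the lowest to the highest library (3 libraries for double mutant, 2 for the others). In the window nearest Prokr1 the double mutant falls from the second CpG on, in that nearest Arrdc4 it is highest at the first CpG and lowest at the others, in that nearest Plcl2 Idh2 mutant MEP is lowest throughout, and in that nearest Gm16432 the 3 middle CpGs are low in every mutant group.

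A group of 12 members that share sequence, 8 of them on chromosome 10, held 6 of the 90 members that rose over knockout MEP. It was picked out after its values were seen and was given no test. Its mean level was 90.4%, 91.1% and 89.9% in double mutant libraries, 62.2% and 83.5% in knockout MEP, 81.4% and 70.5% in Idh2 mutant MEP and 85.98% and 89.2% in WT MEP. In GMP it was 70.7% and 82.96% in knockout, 83.5% and 85.5% in Idh2 mutant and 88.1% and 88.7% in WT libraries. Replicate 1 of both knockout groups and replicate 2 of Idh2 mutant MEP were the lowest. At the copy nearest D10Wsu102e, chr10:82867001-82868000, the level was 86.7%, 87.1% and 86.1% in double mutant libraries, 19.6% and 66.5% in knockout MEP and 64.6% and 36.2% in Idh2 mutant MEP (adjusted p = 0.021 and 0.0384). At the copy nearest Moxd1 it was 87.8%, 87.8% and 87.5% in double mutant libraries and 28.4% and 73.6% in knockout MEP (adjusted p = 0.0196), and near Cenpw, a kinetochore gene, 90.3%, 90.1% and 88.1% and 39.5% and 72.9% in these groups (adjusted p = 0.00417). Without knockout MEP replicate 1 the copies nearest D10Wsu102e and Moxd1 lost their call against knockout MEP, the copy nearest D10Wsu102e also without double mutant replicate 2. Its call against Idh2 mutant MEP was lost without any 1 of the double mutant libraries or without Idh2 mutant MEP replicate 2, and limma gave an adjusted p of 0.0592. The words of these 3 windows occur at a median of 81, 71 and 59.5 places in mm9, so reads of several copies may be counted in 1 window and the windows are not independent of each other. The largest group of repeated members did not show this, as its 158 members averaged 91.97%, 92.1% and 91.6% in double mutant libraries and 91.3% and 91.9% in knockout MEP.

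Between knockout and Idh2 mutant cells over both cell types, 19 members were higher and 19 lower in the knockout, shares of 0.501% each, against 0.215% and 3.46% over all windows. Intron windows of the same WT level and distance had 0.485% and 0.873%, and such exon windows 0.276% and 0.718%. In MEP alone 22 were higher and 2 lower (0.236% and 1.40% over all windows), and in GMP alone 0 were higher and 3 lower (0.0103% and 0.824%; 236 members had an unadjusted p under 0.05 in GMP, and limma called 0 members). The direction turned in MEP without knockout MEP replicate 2, with 10 higher and 16 lower. Over both cell types there were 17 higher and 35 lower without that library, 32 higher and 10 lower without Idh2 mutant MEP replicate 1, and 26 higher and 8 lower without Idh2 mutant GMP replicate 2. The 19 that were lower averaged 71.1% in knockout MEP and 68.9% in knockout GMP, against 87.8% and 89.7% in the Idh2 mutant. In WT MEP and GMP they averaged 83.9% and 85.2%. The 19 that were higher averaged 91.1% in knockout MEP and 89.6% in knockout GMP, against 72.2% and 78.3% in the Idh2 mutant. Their WT averages were 85.6% in MEP and 89.4% in GMP, near the knockout and above the Idh2 mutant. WT values are a description without a test. The calls were few and moved with the fit: limma kept 6 of the 19 that were higher in the knockout and 6 of the 19 that were lower. The fit to the 8 libraries alone called 5 members in all.

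The named windows that were lower in the knockout than in the Idh2 mutant included those nearest Hlx and H2afy. At chr16:87611001-87612000, nearest a U6 gene, the level was 69.8% and 81.5% in knockout MEP and 52.2% and 64.2% in knockout GMP, against 92.4% and 93.4% in Idh2 mutant MEP and 94.4% and 96.5% in Idh2 mutant GMP (adjusted p = 0.0039). In knockout MEP libraries its first 3 CpGs were at 28.6% to 62.5% and the 3 others, from 200 bases on, at 88.2% or more. Near Hlx, a homeobox gene expressed in blood cells, chr1:186572001-186573000 had 58.5% and 60.1% in knockout MEP and 69.3% and 70.3% in knockout GMP, against 79.2% and 91.4% and 87.9% and 89.2% in Idh2 mutant MEP and GMP (adjusted p = 0.00356). Double mutant libraries had 57.1%, 67.8% and 66.9% there, but the CpGs of this window differed from knockout MEP in opposite directions. The first 3 averaged 34.1%, 17.9% and 34.1% in double mutant cells, against 64.9%, 55.4% and 55.4% in knockout MEP, with overlapping libraries at the third. The fourth averaged 94.5% against 61.6%. Near H2afy, which encodes the histone variant macroH2A, chr13:56094001-56095000 had 58.1% and 74.7% in knockout MEP and 72.5% and 63.3% in knockout GMP, against 91.04% and 84.6% and 87.4% and 87.1% in Idh2 mutant MEP and GMP (adjusted p = 0.00489), and the double mutant libraries had 91.4%, 90.4% and 91.6%. The window nearest 1110050K14Rik was lower in the knockout by 20.9 points (quasi-binomial adjusted p = 0.00426). These 4 calls held without any 1 library. The windows near Gm7887, Sbf2 and Nav1 were lower in the knockout by 26.7, 20.4 and 15.9 points (quasi-binomial adjusted p = 0.0243, 0.0389 and 0.023). Each lost its call without at least 4 of the 8 libraries in turn.

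The 8 named windows that were higher in the knockout than in the Idh2 mutant differed by 14.3 to 21.7 points. At chr5:117398001-117399000, nearest 4930569F06Rik, the level was 81.1% and 88.5% in knockout MEP and 86.1% and 88.1% in knockout GMP, against 66.9% and 57.5% in Idh2 mutant MEP and 70% and 68.3% in Idh2 mutant GMP (adjusted p = 0.00184). WT libraries had 88.5% and 86.2% in MEP and 86.8% and 86.5% in GMP. Near Cops8, a subunit of the COP9 signalosome, chr1:92352001-92353000 had 97.7% and 90.4% in knockout MEP and 92.6% and 93.9% in knockout GMP, against 73.8% and 63.3% and 87.1% and 81.8% in Idh2 mutant MEP and GMP (adjusted p = 0.00579). The window nearest Gm17029 was higher in the knockout by 14.3 points (quasi-binomial adjusted p = 0.00877), and these 3 calls held without any 1 library. The windows nearest Gm12916, RP24-276N7.2, Kcnj4, Tgif1 and Gm3604 were higher in the knockout by 21.7, 18.4, 16.5, 16.3 and 16.3 points. Their quasi-binomial adjusted p lay between 0.0123 and 0.0415, and they lost their call without at least 2 of the 8 libraries in turn.

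Only 1 member differed between MEP and GMP over both single mutants, and 0 were higher in MEP (0.253% of all windows were called higher and 0.0479% lower; 175 members had an unadjusted p under 0.05, and limma called 0). It was chr6:113315001-113316000, 5136 bp from Tada3, a subunit of histone acetyltransferase complexes. Its level was 81.2% and 78.99% in knockout MEP and 75% and 68.4% in Idh2 mutant MEP, against 95.1% and 91.1% in knockout GMP and 91.8% and 95.7% in Idh2 mutant GMP. MEP was lower by 17.5 points (adjusted p = 0.00835; limma 0.104), and the call was lost without Idh2 mutant GMP replicate 1 or MEP replicate 2. WT libraries had 71.8% and 73.8% in MEP and 94.9% and 95.8% in GMP. The double mutant cells, which carry MEP markers, had 90.9%, 95.4% and 93.6%. The second and the third of its CpGs shown above differed between the cell types by 10 points or more, and the first did not. The knockout minus Idh2 mutant difference itself differed between MEP and GMP at 1 member (0.0239% of all windows were called for a more positive difference in MEP and 0.00684% for a more negative one). This was chr1:192396001-192397000, nearest AC124613.1, named here because it was the single one, after its value was seen. Its level was 92.8% and 95.4% in knockout MEP and 85.6% and 77.7% in Idh2 mutant MEP, against 82.2% and 70.8% in knockout GMP and 92.3% and 96.2% in Idh2 mutant GMP. The adjusted p was 0.0493, and limma gave 0.384.

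Some members were nearly fully methylated in every library, and some were low in the mean over the mutant libraries. At chr5:105255001-105256000, nearest Zfp951, the lowest of the 15 libraries was at 98.2%, and the 2 next members by this measure, both multi-copy, had lowest libraries at 97.6% and 97.6%. The 3 members with the lowest mean over the 11 mutant libraries were chosen for that value and are a description. At chr10:118066001-118067000, 187898 bp from Ifng, the interferon gamma gene, the level was 36.9%, 43.2% and 51.3% in double mutant libraries, 15.2% and 42.9% in knockout MEP, 33.3% and 18.2% in Idh2 mutant MEP and 90.7% and 89.6% in WT MEP. At chr1:179900001-179901000, nearest Gm16432, it was 45.96%, 44.6% and 47.2% in double mutant libraries, 40.6% and 49.6% in knockout MEP, 46.5% and 52.1% in Idh2 mutant MEP and 98% and 99.3% in WT MEP. In its sequence above, the fifth CpG was at 98.2%, 95.1% and 98.3% in double mutant libraries and the fourth, 4 bases before it, at 12.8%, 12.3% and 16.1%, against 96.7% and 100% in WT MEP. At chr16:32201001-32202000, nearest Bex6, the level was 19.4%, 25.8% and 19.9% in double mutant libraries, 52.1% and 57.6% in knockout MEP, 61.8% and 5.85% in Idh2 mutant MEP and 72.8% and 89.4% in WT MEP. The 2 Idh2 mutant MEP libraries differed widely there, and the second was the lowest of all 15 libraries. In GMP the window nearest Bex6 had 41.7% and 65.3% in knockout and 63.0% and 30% in Idh2 mutant libraries, so it was not low in every mutant library. The window nearest Ifng had 42.3% and 43.6% in knockout GMP and 9.09% and 49.4% in Idh2 mutant GMP.

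The nearest start site belonged to 1 of 150 listed genes, from blood and other lists, in 38 of the 3791 members. Of 6 gene lists, stem and early progenitor genes had 5 such members, erythroid and megakaryocyte genes 1, granulocyte and macrophage genes 3, lymphoid genes 8, DNA methylation genes 4 and developmental transcription factors 17. In knockout against Idh2 mutant cells, 0 of these 38 members were called (1.00% of all members and 3.67% of all windows were called). Against knockout MEP, 2 of the 17 near developmental transcription factors were called, both lower in the double mutant (2.61% of all members and 1.75% of all windows were called lower). Near Hand2, a heart and limb factor, chr8:59770001-59771000 had 73.2%, 74.1% and 65.8% in double mutant libraries and 94.8% and 84.6% in knockout MEP (adjusted p = 0.0335). Near Irx1, chr13:72066001-72067000 had 86.96%, 74.6% and 76.7% in double mutant libraries and 93.3% and 97.1% in knockout MEP (adjusted p = 0.0316). Against Idh2 mutant MEP, 1 of the 3 near granulocyte and macrophage genes was called: chr8:123330001-123331000, 53892 bp from Irf8, a transcription factor needed for monocytes and dendritic cells, had 65.7%, 69% and 57.4% in double mutant libraries, 76.7% and 81.3% in knockout MEP and 88.8% and 77.9% in Idh2 mutant MEP (adjusted p = 0.0426), against 1.71% of all members and 3.48% of all windows called lower. Each of these 3 calls was lost without 1 of the libraries compared. The nearest start site gives a window's place and does not show that the window acts on that gene, whose expression was not measured here.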

How the data were processed

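Per the labels, DNA of sorted cells was treated with bisulfite after adapter ligation. The submitters' processing notes name BSMAP 2.74 and mm9. The deposited files hold counts of methylated and of all reads at each cytosine, summed over the 2 strands of a CpG here. The authors' deposited methylation fraction was checked against these counts and not used. The sources used here do not give trimming, duplicate removal, the placing of reads with several matches or a conversion rate. Duplicates were not separable from distinct molecules, so reads outnumber molecules.

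At least 10 reads in every library were found at 241527 CpGs of the 19 autosomes, where libraries had a median of 30 to 51 reads. Start sites and genes came from GENCODE vM1 on mm9. Gene models over 3000000 bp (2) were disregarded, and 27 members lie inside them.

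A quasi-binomial logistic model of the counts in all 29251 windows had 7 group means and 8 residual degrees of freedom. Its dispersion (median 2.45 before squeezing) was squeezed with a prior of 3.18 degrees of freedom and held at 1 or more. Contrasts were F tests with Benjamini-Hochberg adjustment over all windows. A call needed an adjusted p under 0.05 with 10 points or more between groups. Groups of both cell types had equal weight. For mean levels, with each window counted once, libraries were permuted exactly (two-sided, 13 tests). The model was also run on simulated reads with 1 dispersion (2.45) for every window and with falls only. That setting is simpler than these data, where dispersion varied between windows, so nothing about false calls here is drawn from it. Named windows are the 8 largest rises and 8 largest falls (5 for comparisons with the double mutant or between cell types) among called members whose libraries did not overlap between groups, at most 1 per 10 kb and none on chromosome 18, with the extremes and limits described and called members nearest to listed genes. The rule also picked 1 window that is not reported here. The members, the lists and the comparisons were chosen with earlier results of these data known. Alternatives were a minimum of 20 reads, limma on log2 ratios of methylated to unmethylated reads with 1 added to each, a fit to the compared groups alone, a difference of 25 points, the replicate number as a block, and leaving out each library. For mean levels they were a WT limit of 90%, a distance of 10 kb, each CpG counted once, all reads pooled and no CpGs in CCGG. Single-copy members alone and all gene models were added after the data were seen. The tools were R 4.3.3 with limma 3.58.1 and Python 3.11.15 with scipy 1.17.1, numpy 2.4.6, matplotlib 3.10.9 and pandas 2.3.3.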

Additional observations from a re-analysis of the deposited data

Results flagged for a closer look

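The knockout minus Idh2 mutant difference at chr1:192396001-192397000 was 30.3 points more positive in MEP than in GMP by the test of the difference itself (quasi-binomial model, adjusted p = 0.0493). The call was lost without any 1 of the 8 libraries, with an adjusted p of up to 0.312. Groups held 2 or 3 libraries, too few to look for single libraries far from the others.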

How the results depend on the processing

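Of 224 alternative values, 52 counts of called members moved by over 1.5 times and 5 mean differences reversed; the other 167 were counts within 1.5 times of the reported one or mean differences of the same sign, some much smaller or larger, and some counts among them changed their balance of directions. Called members numbered 189 for double mutant against knockout MEP, 316 for double mutant against Idh2 mutant MEP and 38 for knockout against Idh2 mutant cells. These counts became 71, 117 and 16 (of 1531 members) at 20 reads, 30, 33 and 4 at 25 points, and 48, 62 and 5 in fits to the compared groups alone. limma called 143, 217 and 14, and single-copy members alone gave 166, 276 and 37. Leaving out 1 library in turn gave 74 to 197, 125 to 328 and 16 to 52. The 24 members called between knockout and Idh2 mutant MEP became 15 at 20 reads, 3 at 25 points, 2 with limma, 0 with the groups alone and 0 to 35 without 1 library. The 3 called in GMP became 0 with limma or the groups alone and 0 to 2 without 1 library. The 1 member called between MEP and GMP became 0 with limma, the groups alone or 25 points and 0 to 4 without 1 library, and the 1 called for a difference between MEP and GMP became 0 with limma, the groups alone or 20 reads and 0 to 1 without 1 library. The cause of these losses was not tested, beyond the smaller number of members at 20 reads and of libraries in the reduced fits.

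With the replicate number as a block, 109, 191 and 24 members were called in the first 3 comparisons, 3 in MEP and 0 in each of the others. Same-numbered knockout and Idh2 mutant libraries did not deviate together over the members (correlation of deviations 0.0155 in GMP and -0.0526 in MEP); GMP and MEP libraries with the same title prefix had 0.0242 in the knockout, 0.364 in the Idh2 mutant and 0.197 in WT. Not every pair was over 0.1, so the numbers were not taken to pair the samples.

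Of the mean levels, double mutant minus knockout MEP reversed from 0.471 points to -0.337 without CpGs in CCGG and to -0.271 without knockout MEP replicate 1 (up to 1.21 without replicate 2). Its contrast with intron windows reversed to 0.153 with all reads pooled and to 0.00967 without CpGs in CCGG, and that with exon windows to 0.0839 with all reads pooled; the cause was not tested. The double mutant minus Idh2 mutant MEP difference stayed between 2.52 and 3.61 points in all alternatives run. Knockout minus Idh2 mutant ran from 0.359 to 1.32 points and MEP minus GMP from -0.985 to -0.0278 points without 1 library, and relative to intron windows knockout minus Idh2 mutant became 0.246 points at a WT limit of 90%. Depth limits single windows, with as few as 30 reads per window and library.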
